A study of Mus musculus with 40 samples.

Results

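J558LuM is a mouse plasmacytoma line, a tumour of antibody-secreting plasma cells. The arrays described here hold RNA of J558LuM cells transduced with the MIR construct, the vector without PAX5, and they ask what varied in this line when no PAX5 construct was present. All 7 MIR arrays of the 40 in the series were taken: 4 with RNA of isolation batch 1 (replicates 1 to 4) and 3 with RNA of isolation batch 2 (replicates 5 to 7). The remaining arrays carry a PAX5 construct: 7 with PAX5-WT, 7 with PAX5-G183S, 7 with PAX5-G183V, 6 with PAX5-P80R and 6 with PAX5-Δ2-6. They serve to look for the same differences elsewhere. They also enter the choice of probe set per gene and the estimate of spread in some alternative fits. Cells of all groups were transduced and had their RNA extracted with Trizol, and the labels name no other treatment.

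Each MIR array has a transduction number of its own: 34, 35, 37 and 38 in isolation batch 1, and 58, 59 and 60 in isolation batch 2. The number and the isolation batch therefore change together within MIR, and the transduction, the time in culture and the RNA isolation cannot be told apart there. Arrays were also run in plate batches, the set of arrays handled together on a plate. Replicates 1, 2, 5 and 6 were on plate 1 and replicates 3, 4 and 7 on plate 2, so both isolation batches were on both plates. All values are log2 signals, so a difference of 1 is a doubling. The cells are 1 line, and p-values measure the spread between its transductions.

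Plasma cells are made for secretion. They carry an enlarged endoplasmic reticulum (ER), the unfolded protein response keeps its folding capacity matched to the antibody load, and coat protein complex II (COPII) vesicles carry the cargo to the Golgi. The factors IRF4, BLIMP-1 (Prdm1) and XBP1 hold this state, in which PAX5, the factor that commits cells to the B lineage, is silent. Plasmacytoma lines keep the secretory state and also divide, so the cell cycle, DNA replication and sterol synthesis run beside it.

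The arrays matched a plasma cell line. Of 19 measured plasma cell identity genes 15 had a mean above 8 over the MIR arrays, with a median level of 10.17. Fibroblast, T cell, myeloid and erythroid marker lists had median levels of 3.79, 3.99, 3.71 and 3.95, and 0 of their 14, 12, 14 and 8 members were called between the isolation batches. Only 3 constant-region or surrogate light chain genes of the immunoglobulin list were measured and all lay under 5, so this list did not check the antibody genes. Array medians ran from 4.22 to 4.25. Correlation across genes was 0.9966 to 0.9977 for the 9 pairs of MIR arrays within an isolation batch and 0.9954 to 0.9967 for the 12 pairs across batches.

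Between the isolation batches 328 of 17097 genes (1.92%) were called by limma with the plate as covariate, at an adjusted p under 0.05. Of these 145 (0.848% of all genes) were lower in isolation batch 2 and the rest (1.07%) higher. Each array reads RNA of a whole culture, so a lower level per cell and fewer cells with the RNA cannot be told apart. The differences were small: their median size was 0.458, 83 reached 1.5-fold and 7 reached 2-fold. The 3 batch 2 arrays lay wholly above or wholly below the 4 batch 1 arrays for 322 of the 328 genes, where 16.5% of all genes tested did so (8.52% above, 7.94% below). The genes were called on these same arrays, so their separation largely follows from the call and is no separate support. Between the plates 0 genes were called by the same limma fit, with 2097 at an unadjusted p under 0.05 and a smallest adjusted p of 0.189.

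The number of calls depended on every array. Calls numbered 30 without MIR replicate 1, 0 without replicate 2, 120 without replicate 3, 103 without replicate 4, 0 without replicate 5, 14 without replicate 6 and 2 without replicate 7. In each of these 7 fits all 328 genes kept their direction and had an unadjusted p under 0.05, and their changes were 0.67 to 1.28 times those from all arrays. These fits reuse arrays on which the genes were chosen, so the agreement is no separate support. Cox6a2, a subunit of the mitochondrial cytochrome oxidase, was the 1 gene whose change moved more than 1.5 times, from 0.76 to 0.50 without replicate 7. A fit of all 40 arrays, in which the spread is estimated from every construct, called 824 genes and 287 of the 328; with each MIR array left out in turn it called 465 to 627. Counts of called list members given below are likewise 0 without replicate 2 or 5. The threshold fell between Gtf2a1 (change 0.40, adjusted p = 0.0491) and Akr1b10 (change -0.32, adjusted p = 0.0503).

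**Figure D1:**
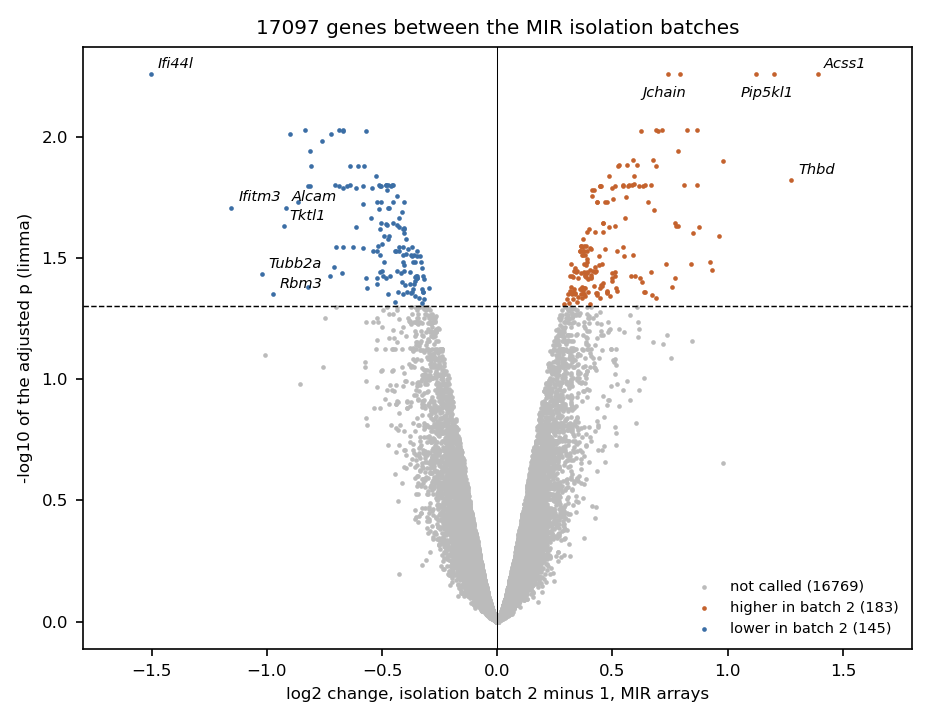
Log2 change between the MIR isolation batches (x axis, batch 2 minus batch 1) against -log10 of the limma adjusted p (y axis) for 17097 genes, 1 point each. The dashed line marks an adjusted p of 0.05, with 328 called genes above it, 145 of them lower, and 10 genes described in the text are named.

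Among the genes that rose, the largest change was that of Acss1, a mitochondrial acetyl-CoA synthetase. Acss1 read 6.14, 5.90, 5.66 and 5.61 on the batch 1 arrays and 7.29, 7.19 and 7.28 on the batch 2 arrays, a change of 1.39 ± 0.11 (SE; adjusted p = 0.00553). Thbd, which encodes thrombomodulin, read 5.48, 4.90, 5.32 and 5.53 and then 6.27, 6.52 and 6.80 (1.28 ± 0.15, adjusted p = 0.0151). For both genes every batch 2 array was above every batch 1 array. Pip5kl1, a relative of the phosphatidylinositol phosphate kinases, rose by 1.20 ± 0.08 from a range of 6.04 to 6.40 to one of 7.37 to 7.47. The other 12 of the 15 largest rises were Gm5547, Shbg, Ica1, Fkbp7, Ppp1r17, Pctp, Carmil1, Negr1, Cryba4, Rsrc1, Sypl and Sirt5, with changes of 0.81 to 1.12. Ppp1r17 and Rsrc1 were dim, with means of 3.55 and 4.10 in batch 1.

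The largest fall was that of Ifi44l, an interferon-induced gene. It read 5.91, 5.71, 5.84 and 5.83 on the batch 1 arrays and 4.25, 4.01 and 4.60 on the batch 2 arrays, a change of -1.50 ± 0.11 (adjusted p = 0.00553). Its second brightest probe set gave -1.20 and its dimmest, at a mean of 3.42, gave 0.05. Ifitm3, a membrane protein that restricts virus entry, read 7.45, 7.28, 7.32 and 7.29 and then 6.10, 5.75 and 6.58 (-1.15 ± 0.16, adjusted p = 0.0196). In both genes the batch 1 arrays lay close together and the batch 2 arrays lower and wider apart.

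Tubb2a, a beta tubulin, fell by 1.02 ± 0.18, from 5.92, 6.39, 5.69 and 5.96 to 4.87, 4.83 and 5.24. Rbm3, an RNA-binding protein induced by cold, read 6.50, 6.45, 6.52 and 6.28 against 5.05, 5.88 and 5.49 (-0.97 ± 0.18). The batches of both genes did not overlap, and in Rbm3 the batch 2 arrays were the more widely spread. Tktl1, a transketolase-like enzyme, Alcam, the adhesion molecule CD166, and Pkp2, a desmosomal plakophilin, fell by 0.93, 0.92 and 0.83. The others of the 15 largest falls were Napb, Flt3, D17H6S56E-5, N4bp2l1, Fos, Gm17399, 0610038B21Rik and 5830454E08Rik, at -0.90 to -0.76. Of the 30 genes with the largest changes 13 had more than 1 probe set, and in 8 of these all probe sets went the same way. The exceptions were Pctp, Ifi44l, Napb, Pkp2 and N4bp2l1; in the last a probe set at a mean of 5.59 gave 0.30 where the one used gave -0.82.

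**Figure D2:**
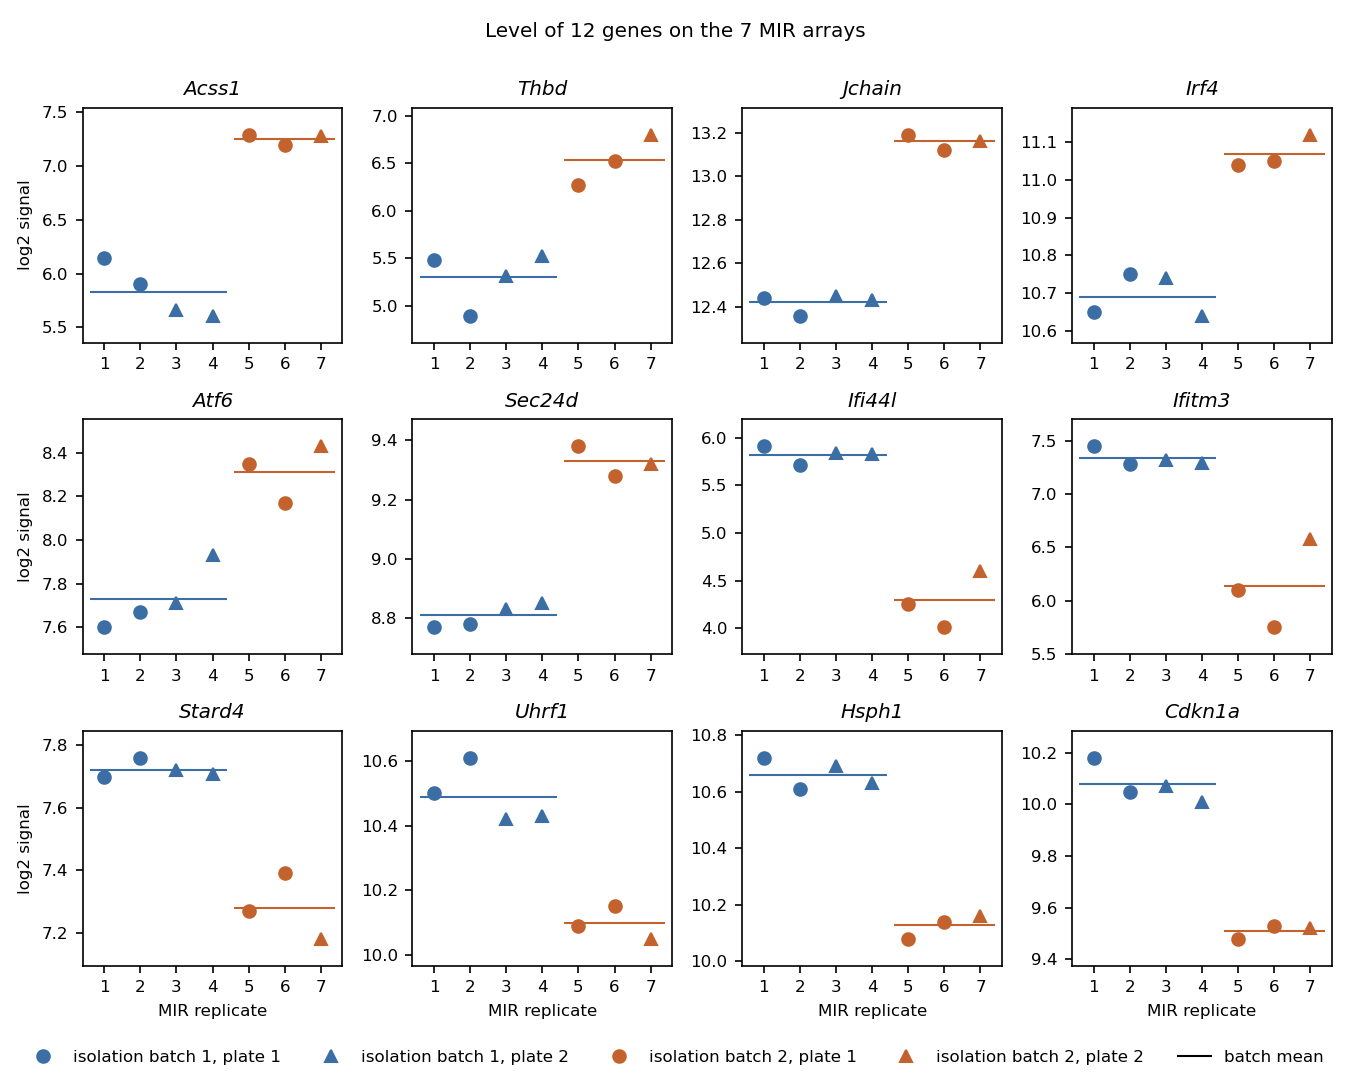
Log2 signal (y axis, scale differs between panels) of 12 genes on the 7 MIR arrays (x axis, replicate number), coloured by isolation batch, with circles for plate 1, triangles for plate 2 and lines for the batch means. Acss1 sits between 5.61 and 6.14 in batch 1 and between 7.19 and 7.29 in batch 2, and in all 12 genes the batches do not overlap.

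In the plasma cell identity list 2 of 19 measured genes rose, 1 fell and 16 did not pass, with a median change of 0.06 against 0.00 over all genes. Of all genes 1.07% rose and 0.848% fell, the shares to set beside this and every later list count. Jchain, the chain that joins antibody monomers into polymers, read 12.44, 12.36, 12.45 and 12.43 in batch 1 and 13.19, 13.12 and 13.16 in batch 2 (0.74 ± 0.06, adjusted p = 0.00553). Irf4, which drives plasma cell differentiation, rose by 0.38 ± 0.06, from 10.64 to 10.75 over batch 1 to 11.04 to 11.12 over batch 2. Txndc5, a disulphide isomerase of the ER, fell by 0.46 ± 0.06, from 12.09 to 12.17 down to 11.62 to 11.71. Jchain and Irf4 thus rose on arrays where Txndc5 fell, and a second probe set had the same sign for Irf4 (0.26) and Txndc5 (-0.50). Prdm1 read 8.89 to 8.94 against 9.13 to 9.19 (0.24 ± 0.06, adjusted p = 0.0787) and did not pass. Xbp1 was the brightest gene of the list, at 13.20 to 13.35 against 13.31 to 13.38 (0.06 ± 0.06, adjusted p = 0.643). With all 40 arrays in the fit 5 members were called higher and 1 lower.

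Of 25 measured genes of the unfolded protein response and ER folding 2 rose, 0 fell and 23 did not pass (median change 0.06, 19 values above 0). Atf6, the ER-bound sensor that is cut and enters the nucleus under folding stress, read 7.60, 7.67, 7.71 and 7.93 in batch 1 and 8.35, 8.17 and 8.43 in batch 2 (0.61 ± 0.08, adjusted p = 0.016). Dnajb9, a co-chaperone of the ER chaperone BiP, read 9.78, 9.79, 9.66 and 9.69 and then 10.18, 10.22 and 10.08 (0.41 ± 0.05, adjusted p = 0.0176). The batches of both genes stood apart. A second probe set of Atf6, at a mean of 7.79, gave a smaller change of 0.25. Abundant ER chaperones did not pass: Hspa5, which encodes BiP, read 12.45 to 12.63 against 12.53 to 12.56 (-0.02 ± 0.06), and Hsp90b1 gave 0.06 ± 0.06. The ER sensor Ern1 gave 0.25 ± 0.07 (adjusted p = 0.123). Sil1, which recharges BiP with nucleotide and is not on the list, rose by 0.69 ± 0.06, from 8.08 to 8.23 up to 8.84 to 8.92; it was chosen after its values were seen. With all 40 arrays in the fit 4 members were called higher and 0 lower.

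The secretory pathway list had 2 of 27 members higher and 0 lower (median change 0.06), and both were cargo adaptors of the COPII coat. Sec24d read 8.77, 8.78, 8.83 and 8.85 in batch 1 and 9.38, 9.28 and 9.32 in batch 2 (0.52 ± 0.06, adjusted p = 0.0132). Sec24a read 9.87, 9.86, 9.76 and 9.74 and then 10.25, 10.31 and 10.24 (0.45 ± 0.06, adjusted p = 0.016). In both genes the arrays of a batch lay close together and the batches stood apart. A second probe set of Sec24a, at a mean of 6.52, went the other way, at -0.16. Other COPII parts did not pass: Sec23b, of the inner coat, gave -0.15 ± 0.05 and the GTPase Sar1b -0.15 ± 0.06. With all 40 arrays 5 members were called higher and 0 lower.

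Several members of the secretory lists have a RefSeq promoter window, and those of an ER gene that rose and of the abundant chaperone that did not pass are given for comparison. Windows were matched by symbol for 259 of the 328 called genes, and each run below is the 250 bases before the start site on the gene's strand (GRCm38.p6). Dnajb9 lies at chr12:44210069-44210318 on the minus strand, with a CCAAT box (CCAAT, both strands searched) in capitals. Hspa5 lies at chr2:34771840-34772089 on the plus strand, with an ER stress response element (CCAAT, then any 9 bases, then CCACG, both strands searched, which contains a CCAAT box) in capitals.
Dnajb9: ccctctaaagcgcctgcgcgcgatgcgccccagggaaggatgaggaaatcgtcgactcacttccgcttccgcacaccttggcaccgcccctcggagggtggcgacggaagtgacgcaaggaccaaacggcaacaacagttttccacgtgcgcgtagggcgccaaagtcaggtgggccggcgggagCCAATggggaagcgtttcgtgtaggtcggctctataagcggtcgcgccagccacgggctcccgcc
Hspa5: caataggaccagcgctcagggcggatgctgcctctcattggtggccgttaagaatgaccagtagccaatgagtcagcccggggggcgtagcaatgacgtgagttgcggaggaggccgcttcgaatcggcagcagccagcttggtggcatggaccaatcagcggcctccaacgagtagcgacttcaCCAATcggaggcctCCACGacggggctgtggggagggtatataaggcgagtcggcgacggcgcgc
The element in Hspa5 runs from 65 to 47 bases before the start, and the CCAAT box of Dnajb9 from 65 to 61. Of all 32851 windows of this length 0.113% held the full element and 33.8% a CCAAT box. The full element was in the windows of 9 of the 21 unfolded protein response genes with a window, and 0 of these 9 were called (changes -0.10 to 0.21). Among the 12 without it 1 was called (changes -0.08 to 0.41). A match is a description of the letters and says nothing of binding.

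Cholesterol synthesis had the lowest median of the lists, -0.26, with 14 of 18 measured values below 0. Of the 18 genes 2 fell, 0 rose and 16 did not pass. Stard4, a sterol carrier, read 7.70, 7.76, 7.72 and 7.71 in batch 1 and 7.27, 7.39 and 7.18 in batch 2 (-0.45 ± 0.06, adjusted p = 0.0227), whereas its other probe sets, at means of 6.59 and 6.55, gave -0.03 and 0.00. Cyp51, the lanosterol demethylase, read 9.17, 9.22, 9.25 and 9.23 and then 8.91, 8.91 and 8.80 (-0.35 ± 0.06, adjusted p = 0.0383). A second probe set of Cyp51, at 7.18, gave -0.19, and a dim one, at 3.97, gave 0.10. Close to the threshold lay Sqle, squalene epoxidase (-0.32 ± 0.06, adjusted p = 0.0558), Insig1, the sterol sensor of the ER (-0.34 ± 0.07, adjusted p = 0.0582), and Sc5d, sterol desaturase (-0.35 ± 0.08, adjusted p = 0.0703). In 8 of the 18 genes, 44.4%, the batch 2 arrays were all below the batch 1 arrays, where 7.94% of all genes were. The early enzyme Mvk gave 0.10 ± 0.08 and Lss 0.15 ± 0.14. The fit of all 40 arrays called 6 members lower and 0 higher.

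The sterol genes are shown by the promoter window of Cyp51, at chr5:4104698-4104947 on the minus strand, with its CCAAT box in capitals, 29 to 25 bases before the start.
Cyp51: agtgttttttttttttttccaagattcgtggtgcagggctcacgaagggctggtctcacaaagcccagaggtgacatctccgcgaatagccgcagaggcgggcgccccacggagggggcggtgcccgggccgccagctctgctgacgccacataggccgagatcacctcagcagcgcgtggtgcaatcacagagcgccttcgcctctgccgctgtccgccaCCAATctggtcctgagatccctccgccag
All 14 cholesterol synthesis genes with a window held a CCAAT box in at least 1 window, with changes of -0.35 to 0.15 and 1 of them called. The box is therefore shared by members that fell and members that did not pass.

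DNA replication and repair genes had a median change of -0.13, with 22 of 25 values below 0, 1 called lower and 0 higher. Uhrf1, which carries DNA methylation through replication, read 10.50, 10.61, 10.42 and 10.43 in batch 1 and 10.09, 10.15 and 10.05 in batch 2 (-0.41 ± 0.06, adjusted p = 0.0239), and a second probe set gave -0.37. Tyms, thymidylate synthase, gave -0.27 ± 0.06 (adjusted p = 0.0636). The helicase subunits Mcm2 to Mcm7 on the list gave -0.19 to -0.10, with none past the threshold. The batch 2 arrays were all below the batch 1 arrays for 16 of the 25 genes, where 7.94% of all genes were. The all-array fit called 5 lower and 0 higher, where it called 394 of all 17097 genes lower.

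Of 30 cell cycle and mitosis genes 1 rose, 3 fell and 26 did not pass, with a median of 0.09 and 21 values above 0. The fallers act at the entry to S phase: cyclin E2 (Ccne2) read 9.17, 9.32, 8.95 and 9.20 against 8.64, 8.83 and 8.65 (-0.47 ± 0.09), cyclin D3 (Ccnd3) gave -0.47 ± 0.07, and the kinase Cdk2, the partner of cyclin E, gave -0.35 ± 0.07. The mitotic kinase Aurkb read 9.34, 9.21, 9.29 and 9.25 and then 9.58, 9.56 and 9.73 (0.36 ± 0.07, adjusted p = 0.0424). The list median and the majority of its calls thus differed in sign.

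Both called genes of the p53 and apoptosis list (21 measured, median 0.07) fell. Cdkn1a, the cyclin-dependent kinase inhibitor p21, read 10.18, 10.05, 10.07 and 10.01 in batch 1 and 9.48, 9.53 and 9.52 in batch 2 (-0.58 ± 0.06, adjusted p = 0.0132). Mdm2, the ubiquitin ligase of p53, read 9.21 to 9.32 against 8.89 to 8.96 (-0.37 ± 0.06, adjusted p = 0.0328). Both p53 targets were below batch 1 on every batch 2 array, while 13 of the 21 values of the list were above 0.

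Heat shock genes had a median of -0.10, with 13 of 16 values below 0, 2 called lower and 1 higher. Hsph1, the chaperone HSP110, read 10.72, 10.61, 10.69 and 10.63 and then 10.08, 10.14 and 10.16 (-0.53 ± 0.06, adjusted p = 0.0145). Dnajb1, an HSP40 co-chaperone, gave -0.35 ± 0.06 (adjusted p = 0.031). Bag3, a co-chaperone of HSP70, gave 0.37 ± 0.07 (adjusted p = 0.0461), but its arrays overlapped, at 7.13 to 7.54 against 7.53 to 7.89. The constitutive Hspa8 gave -0.04 ± 0.06. With all 40 arrays 5 members were called lower and 1 higher.

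Members of the interferon response list did not move one way: 2 of 25 rose, 1 fell and 22 did not pass (median 0.03). Irgm1, an immunity-related GTPase, read 6.61, 6.57, 6.49 and 6.62 and then 7.54, 7.27 and 7.31 (0.79 ± 0.08, adjusted p = 0.0114). Ddx58, the RNA sensor RIG-I, gave 0.46 ± 0.06 (adjusted p = 0.0227). Zbp1, a sensor of Z-form nucleic acid, gave -0.36 ± 0.07 (adjusted p = 0.0425). Ifit1 and Oasl2, classical interferon-induced genes, were dim, with means of 3.50 and 3.09 in batch 1, and gave -0.12 ± 0.12 and 0.00 ± 0.06. Ifi44l and Ifitm3, which fell most of all genes, are not on this list.

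The promoter window of Irgm1 is given because this interferon-inducible gene rose while Ifi44l and Ifitm3 fell. It lies at chr11:48871421-48871670 on the minus strand, and capitals mark the core of the interferon-stimulated response element (GAAA, then any 2 bases, then GAAA, both strands searched).
Irgm1: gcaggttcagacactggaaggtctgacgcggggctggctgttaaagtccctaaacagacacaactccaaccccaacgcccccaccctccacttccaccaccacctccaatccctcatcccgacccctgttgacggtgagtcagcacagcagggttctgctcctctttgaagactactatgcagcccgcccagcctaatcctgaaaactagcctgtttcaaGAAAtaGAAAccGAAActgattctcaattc
The core occurs here as overlapping matches, 30 to 21 and 24 to 15 bases before the start, and 2.98% of all windows held it. Of the 20 interferon response genes with a window 9 held the core, 1 of them called (changes -0.30 to 0.79), and 11 did not, 1 of them called (changes -0.28 to 0.46).

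B lineage transcription factors had 4 of 23 measured members higher and 1 lower, with a median of 0.00. Mef2c, a factor of B cell proliferation, read 9.52, 9.48, 9.23 and 9.34 and then 9.91, 9.89 and 10.06 (0.55 ± 0.09, adjusted p = 0.031). Aff3 gave 0.49 ± 0.07, Tcf4, the E protein E2-2, gave 0.34 ± 0.06, and Irf4 is described above. Id3, which blocks E proteins, read 7.22, 7.25, 7.53 and 7.35 and then 6.63, 6.53 and 6.97 (-0.58 ± 0.07, adjusted p = 0.016). Id2, a second inhibitor of E proteins that is not on the list and was chosen after its values were seen, read 7.34 to 7.38 against 6.76 to 6.83 (-0.57 ± 0.06, adjusted p = 0.00948). Tcf3, the other measured E protein of the list, read 9.31 to 9.44 against 9.24 to 9.33 (-0.11 ± 0.06, adjusted p = 0.423) and did not pass. The batches did not overlap for Tcf4, Id3 and Id2, and they did for Tcf3. Pax5 itself read 4.19 to 4.58 against 4.22 to 4.63 (0.01 ± 0.11), and Ebf1 gave -0.08 ± 0.10 at a level under 4.

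**Figure D3:**
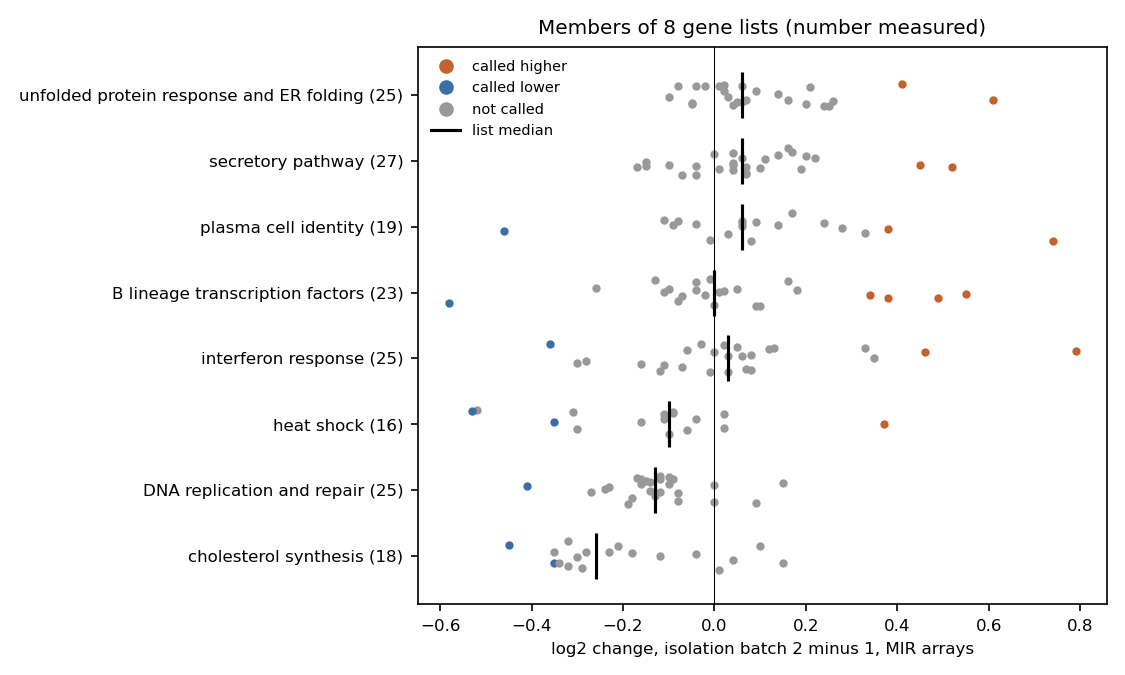
Log2 change between the MIR isolation batches (x axis) of every measured member of 8 gene lists, 1 point per gene with random vertical offset, coloured by call, with a bar at the list median. Cholesterol synthesis has a median of -0.26 with 2 called members, and the unfolded protein response 0.06 with 2 called members.

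Genes of the cytoskeleton included 3 that fell of 26 measured and 0 that rose (median -0.04). Beside Tubb2a these were the alpha tubulin Tuba1a, at 11.16 to 11.19 against 10.62 to 10.77 (-0.48 ± 0.06, adjusted p = 0.0158), and gamma actin, Actg1, at 12.65 to 12.75 against 12.28 to 12.36 (-0.37 ± 0.06, adjusted p = 0.031). In the amino acid stress list 1 of 28 rose and 2 fell (median -0.08). Cth, which makes cysteine from cystathionine, read 9.50 to 9.67 against 8.96 to 9.11 (-0.52 ± 0.07). Slc7a11, the cystine importer, which is also on the oxidative stress list (22 measured, its 1 call), gave -0.34 ± 0.05. The arginine transporter Slc7a1 gave 0.36 ± 0.06. Both called genes of cysteine supply were lower, and the arginine transporter was higher.

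Immediate early genes had 1 call in each direction among 25. Fos, a subunit of AP-1, read 5.26, 5.35, 5.19 and 5.60 and then 4.56, 4.52 and 4.51 (-0.81 ± 0.10, adjusted p = 0.016), and the phosphatase Dusp2 gave 0.55 ± 0.07 (adjusted p = 0.016). Single members were called in 4 further lists, all higher: H2ax among 10 histone genes (0.48 ± 0.06), Mxd4 among 24 MYC and ribosome biogenesis genes (0.46 ± 0.08), the protease Ctss among 15 MHC class II presentation genes (0.37 ± 0.06) and Cd44 among 22 adhesion genes (0.33 ± 0.06). Other probe sets of Cd44 gave 0.47 at a mean of 10.02, -0.09 at 10.74 and -0.01 at 3.63. Members called numbered 0 in limma for fatty acid synthesis (19 measured, 8 at an unadjusted p under 0.05), glycolysis and hypoxia (26, 3), oxidative phosphorylation (25, 2) and ribosomal proteins (19, 0). The same held for MHC class I presentation (11, 4), the NF-kB response (23, 7), cytokine receptor and STAT targets (22, 4), lysosome and autophagy (22, 5), clock and nutrient sensors (22, 4) and B cell receptor and surface genes (22, 4). Fits of all 40 arrays (824 of all genes called) or with a trended prior (1665) called some members of these lists, apart from the ribosomal proteins, with 0 in both.

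A list of 10 genes was drawn from those that PAX5 raised in earlier results of these data. The list is a choice and does not hold all such genes. Of the 10 listed, 1 was called in MIR, where 1.92% of all genes were. Flt3, a receptor of early progenitors, read 5.75, 5.55, 5.18 and 5.49 in batch 1 and 4.87, 4.55 and 4.58 in batch 2 (-0.87 ± 0.12, adjusted p = 0.0186). Cd36, a scavenger receptor for lipids, read 3.56 to 3.85 on replicates 1 to 6 and 5.89 on replicate 7, and its change of 0.98 ± 0.36 did not pass (adjusted p = 0.222). Fcgr2b, the inhibitory Fc receptor, read 4.12 to 4.92 on those 6 arrays and 5.58 on replicate 7, and Nav3 read 3.84 to 4.34 and 4.53. Other probe sets of Fcgr2b gave batch changes of -0.18, -0.15 and -0.01, where the one used gave 0.18. Replicate 7 was thus the highest array for 3 of the 10 genes on the probe sets used. If the 7 arrays did not differ, each would be highest for about 1 gene in 7. All 10 genes were low in MIR, with means of at most 5.14. Among the rest, replicate 7 was not the highest for Slamf6 (5.02, with up to 5.37 elsewhere) or Flt3 (4.58, with up to 5.75). Nor was it for Ets1, which reached 4.17 in batch 2 and 4.45 in batch 1. What sets this array apart was not tested. The Pax5 probe set cannot check that array for a PAX5 construct: it read 4.36 to 4.98 and 4.46 to 5.14 in the PAX5-WT batches, where Cd36 read 9.86 to 10.65 and 10.15 to 10.56.

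RNA quality and labelling controls were read on the same arrays. The 3' minus 5' difference of the Gapdh control probe sets was -0.05 to 0.02 in batch 1 and -0.12 to 0.05 in batch 2 (difference -0.01, two-sided exact permutation p = 0.944 over 18 assignments within plates, the smallest possible being 0.0556). That of Actb was 0.84 to 1.03 against 0.82 to 0.97 (-0.04, exact p = 0.444) and that of Tfrc 0.96 to 2.12 against 1.00 to 1.72 (-0.32, exact p = 0.333). Adjusted over the 3 tests by Benjamini and Hochberg these were 0.944, 0.666 and 0.666. Hybridization spikes changed by -0.10 to 0.03 and poly-A spikes by -0.39 to 0.08. With the Gapdh difference as a covariate 142 genes were called, all 328 kept their direction, and their median changes stayed at 0.45 and -0.47. The part of RNA isolation in the differences was not tested.

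To see whether the differences recur in arrays that share no RNA with MIR, the same fit was made within PAX5-WT, whose 7 arrays have the same batch and plate layout (transductions 36 to 43 and 61 to 63). It called 199 genes (1.16%), 101 of them also called in MIR and all in the same direction. Of the genes higher in MIR 53 (29%) were called higher (0.655% of all genes were), and of the 145 lower genes 48 (33.1%) were called lower (0.509% of all genes were). The shared genes were 30.8% of the MIR calls and 50.8% of the PAX5-WT calls. Of the genes higher in MIR all but 2 had a positive change in PAX5-WT, with a median of 0.41 against 0.45 in MIR, and of the 145 lower genes 141 had a negative one, with a median of -0.40 against -0.47. Over all genes tested 49.9% of the changes in PAX5-WT were positive. Calls in PAX5-WT fell to 38, 38, 71, 123, 23, 14 and 11 without replicates 1 to 7 in turn.

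Thbd is an example. It read 5.43, 5.54, 5.27 and 5.68 in PAX5-WT batch 1 and 6.89, 6.96 and 7.15 in batch 2 (1.53 ± 0.11, adjusted p = 0.00201), where MIR gave 1.28. Jchain gave 1.03 in PAX5-WT and 0.74 in MIR, Irf4 0.54 and 0.38, Ifitm3 -1.26 and -1.15, Tubb2a -1.38 and -1.02, Id3 -0.91 and -0.58, and Cdkn1a -0.66 and -0.58, all called in both. Sil1 gave 0.64 in PAX5-WT (adjusted p = 0.015). Members that passed in MIR and missed the threshold in PAX5-WT kept their sign in the examples of Atf6 (0.43), Sec24d (0.33), Stard4 (-0.53), Cyp51 (-0.29), Uhrf1 (-0.36) and Hsph1 (-0.35), but Slc7a11 gave 0.02. List medians in PAX5-WT were -0.17 for cholesterol synthesis, -0.09 for DNA replication, -0.08 for heat shock and 0.04 for the unfolded protein response.

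The difference of the batch change between MIR and PAX5-WT was tested over 21 arrays, with 1 gene called (0.00585%) and 825 at an unadjusted p under 0.05. Slamf6, a receptor of the SLAM family, read 4.97 to 5.37 on all MIR arrays (0.06 ± 0.08). In PAX5-WT it read 6.78, 6.96, 6.25 and 6.37 in batch 1 and 9.29, 9.17 and 9.65 in batch 2 (2.75 ± 0.18). The difference was -2.69 ± 0.38 (adjusted p = 0.0173), and 0 genes were called without MIR replicate 1, 2, 3, 5 or 7. Ifi44l, at -1.50 in MIR and -0.59 in PAX5-WT, differed by -0.97 ± 0.31 (adjusted p = 0.908) and Acss1, at 1.39 and 0.55, by 0.89 ± 0.31 (adjusted p = 0.965), and neither passed.

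**Figure D4:**
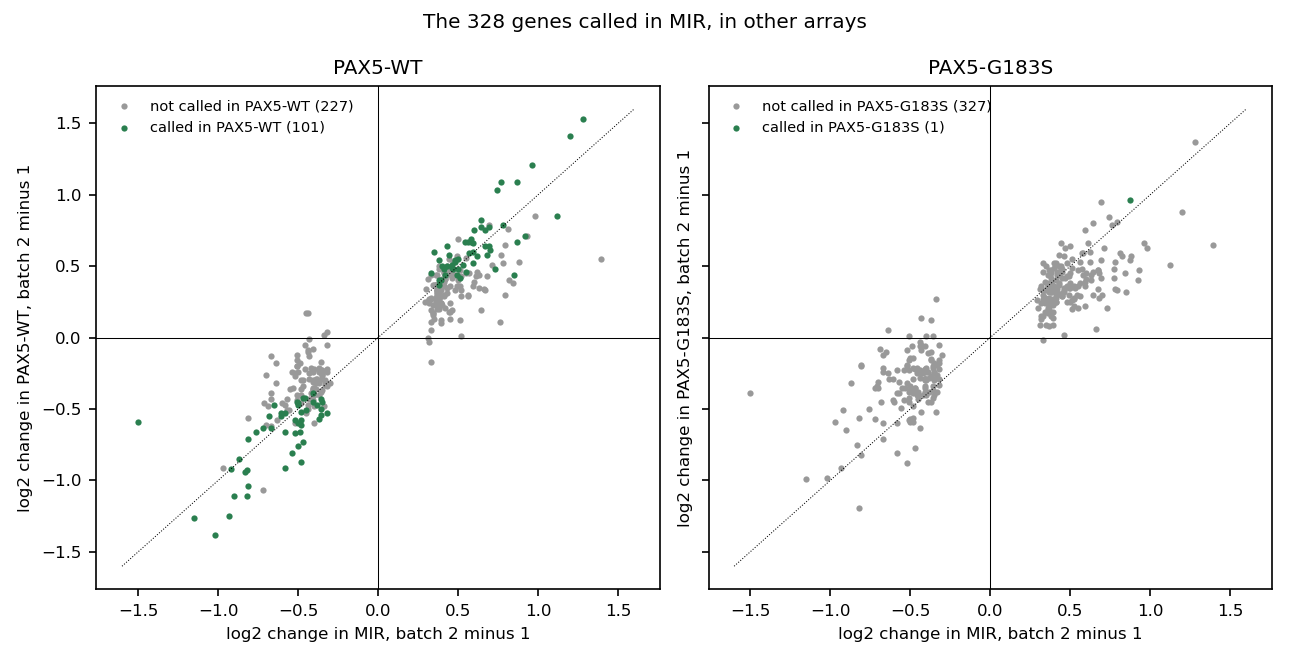
Log2 change between isolation batches in MIR (x axis) against that in PAX5-WT (left) and PAX5-G183S (right) for the 328 genes called in MIR, 1 point per gene, with a dotted line of equal change. In PAX5-WT 101 genes are called and all but 2 of the risers lie above 0, whereas in PAX5-G183S 1 is called.

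In PAX5-G183S 2 genes were called (0.0117%), 1 of them, Negr1, also in MIR, with 1901 at an unadjusted p under 0.05. Still all but 1 of the higher and 138 of the 145 lower genes had the sign seen in MIR, with medians of 0.36 and -0.30. Over all genes tested 49.5% of the changes in PAX5-G183S were positive. The difference from MIR was called for 0 genes by limma over 21 arrays, with 841 at an unadjusted p under 0.05 and a smallest adjusted p of 0.303. One PAX5-G183S array differs by its labels: replicate 4 is of isolation batch 2 but has transduction number 45, next to the batch 1 arrays (41, 42 and 44) and away from replicates 5 to 7 (64 to 66). Without it 14 genes were called, against 0 without any other PAX5-G183S array, and the difference from MIR was then called for 2 genes.

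Replicate 4 of PAX5-G183S read like the earlier transductions for some genes and like isolation batch 2 for others. Thbd read 5.46, 5.56 and 5.29 on replicates 1 to 3, 5.62 on replicate 4, and 7.02, 7.33 and 7.66 on replicates 5 to 7. Jchain read 11.85, 11.75 and 12.17, then 12.25, then 12.99, 13.05 and 13.06. Ifitm3 read 8.67, 8.83 and 8.50, then 8.64, then 7.32, 7.13 and 7.26. In these genes replicate 4 stood with the batch 1 arrays.

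Irf4 read 10.58, 10.65 and 10.64 on replicates 1 to 3, 11.14 on replicate 4, and 11.04, 11.02 and 11.10 on replicates 5 to 7. Atf6 read 7.81, 7.85 and 7.91, then 8.43, then 8.41, 8.55 and 8.82. Stard4 read 7.81, 7.71 and 7.49, then 7.16, then 7.27, 7.34 and 7.14. Negr1 read 6.45, 6.40 and 6.46, then 7.38, then 7.31, 7.53 and 7.41. Here the single array stood with the rest of isolation batch 2. Of the 328 genes 256 had PAX5-G183S replicates 5 to 7 apart from replicates 1 to 3 in the direction seen in MIR: 157 above and 99 below, where 11.7% of all genes were above, 9.79% below and 21.5% apart either way. Within the 256, replicate 4 was nearer to the mean of replicates 1 to 3 in 137 and nearer to that of replicates 5 to 7 in 119. The count is over genes of 1 array and has no test, and the examples were chosen after their values were seen.

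The level of the called genes was then read on every array, as the mean over the higher genes minus the mean over the 145 lower genes. In MIR, where the genes were chosen, it was -0.17 to -0.09 in batch 1 and 0.87 to 0.91 in batch 2. On the 16 other arrays of isolation batch 1 it was -0.15 to 0.07, including the 9 of transductions 1 to 9 (-0.11 to 0.07). On the 6 PAX5-WT and PAX5-G183S arrays of transductions 61 to 66 it was 0.75 to 0.85. The 11 isolation batch 2 arrays of transductions 45 to 57 lay between, at 0.30 to 0.48: PAX5-G183S replicate 4 at 0.31, PAX5-G183V at 0.30 to 0.34, PAX5-P80R at 0.38 to 0.41 and PAX5-Δ2-6 at 0.46 to 0.48. Isolation batch 2 was thus split by transduction number with no overlap. The construct also differs between these sets of arrays except in PAX5-G183S, the division at 57 and 58 was made after the values were seen, and no test was run on it.

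**Figure D5:**
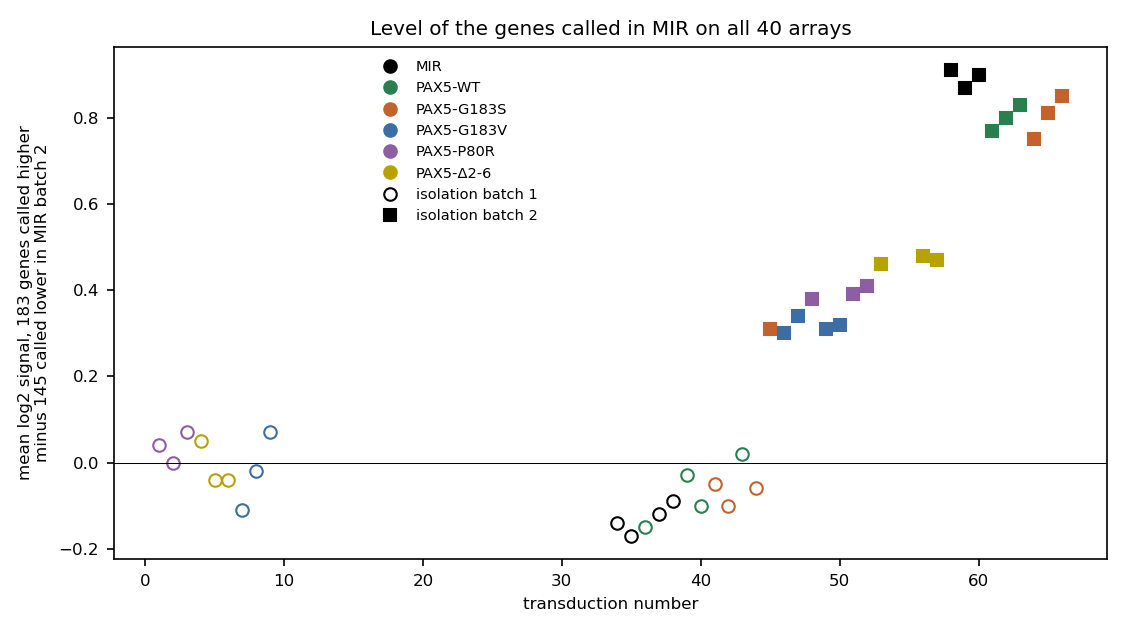
Mean log2 signal of the genes called higher minus that of the 145 called lower in MIR (y axis) for each of the 40 arrays, by transduction number (x axis), with open circles for isolation batch 1, filled squares for batch 2 and a colour per construct. Batch 1 arrays lie at -0.17 to 0.07, batch 2 arrays of transductions 45 to 57 at 0.30 to 0.48, and those of 58 to 66 at 0.75 to 0.91.

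The same limma fit within the remaining constructs, whose arrays are of transductions 1 to 9 and 46 to 57, called 195 genes in PAX5-G183V (1.14%), 50 in PAX5-P80R (0.292%; 0.193% lower) and 152 in PAX5-Δ2-6 (0.889%; 0.585% higher). The fits of PAX5-P80R and PAX5-Δ2-6, whose arrays were all on plate 2, had no plate term, and these fits were added after the data were seen. Shared with MIR in direction were 35, 14 and 37 genes, 17.9%, 28% and 24.3% of each group's calls and 10.7%, 4.27% and 11.3% of those of MIR. Called in the opposite direction were 5, 1 and 1. Of the genes higher in MIR 135, 133 and 164 had a positive change, and of the 145 lower genes 114, 117 and 120 a negative one. Over all genes tested 53.9%, 45.7% and 51.9% of the changes were positive.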

How the data were processed

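The authors deposited 1 table of log2 signals for all 40 arrays (Affymetrix MG-430 PM plate), and RMA is the method that the submitters' processing notes name for them, with a version not given in the sources used here. RNA was extracted with Trizol and labelled by 3' in vitro transcription, per the labels' protocols. RMA had already corrected background and equalized the arrays, so a shift of all genes together cannot be seen. The platform annotation ties 28898 of the 45141 probe sets to a single gene, 551 to more than 1 and leaves 15692 unnamed; for each of 17097 genes the brightest probe set by its mean on the 40 arrays was used. Signal over background and the number of arrays limit the precision.

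The 7 MIR arrays were compared with limma 3.58.1 in R 4.3.3 (lmFit and eBayes, isolation batch and plate as terms, 4 residual degrees of freedom). A gene was called at a Benjamini-Hochberg adjusted p under 0.05 over 17097 genes; all adjusted p-values in the text are of this kind. The code was tested on simulated data. PAX5-WT and PAX5-G183S were fitted alike, and differences in the batch change were tested as interactions over 21 arrays. Replicate numbers shared by MIR and PAX5-WT did not pair the arrays. The genes named are the 15 with the largest rise and the 15 with the largest fall among those called, up to 4 per list, 10 PAX5-raised genes and Pax5; others are said to be chosen later, or are given from the lists without having passed. The members and the 34 lists (659 of 754 genes measured, 12 by a synonym) were chosen with earlier results of these data known. Promoter windows are from RefSeq (GRCm38.p6). Alternatives left out arrays, the plate term, dim genes or 1 plate, or changed the probe set rule, the scaling or the variance model.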

Additional observations from a re-analysis of the deposited data

Results flagged for a closer look

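Cd36 read 5.89 on MIR replicate 7 and 3.56 to 3.85 on the other MIR arrays; the gap to its nearest neighbour was 0.879 of the whole range. It was the 1 array so far from the rest among 58 genes looked at. The gap passed Dixon's limit for its group size, which chance alone passes in about 1 of 20 groups. Among 58 genes a flag by chance alone is therefore expected. Fcgr2b, on the probe set used, was also highest on that array. Its other probe sets gave batch changes of -0.18, -0.15 and -0.01, where the one used gave 0.18.

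The isolation batch change of Slamf6 differed between MIR and PAX5-WT, with a difference of -2.69 ± 0.38 (limma interaction, adjusted p = 0.0173). The receptor changed by 0.06 in MIR and by 2.75 in PAX5-WT, where all 3 batch 2 arrays were above all 4 batch 1 arrays.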

How the results depend on the processing

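All 328 genes kept their direction in every alternative fit that tested them, apart from 3 when the mean of all probe sets was used and 17 that were not tested when genes with a mean under 5 were left out. The alternatives reuse the arrays on which the genes were chosen. The number of calls did not hold: it was 824 with all 40 arrays, 1275 of 8238 genes without those under 5, 1665 with a trended and robust prior, 142 with the Gapdh 3' minus 5' difference as covariate, 83 with a minimum of 1.5-fold, and 0 on plate 1 or plate 2 alone (2018 and 1632 genes at an unadjusted p under 0.05 in limma). Leaving out each MIR array gave 0 to 120 calls. It was 336 to 401 without the plate term, with the plate as a random block, with array weights, with the mean of all probe sets, and after quantile or median scaling, and 457 with MIR, PAX5-WT and PAX5-G183S arrays fitted together. Over these settings the median change of cholesterol synthesis ran from -0.28 to -0.15 and that of DNA replication from -0.14 to -0.09.

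In PAX5-WT calls numbered 702 without genes under 5 and 11 to 123 without each array. In PAX5-G183S they numbered 1 without the plate term, 6 with arrays centred, 7 without dim genes and 0 to 14 without each array. The difference between MIR and PAX5-WT was called for 5 genes with all 40 arrays, 4 with a replicate block and 0 or 1 without each MIR array; same-numbered arrays did not deviate together (correlations of -0.05 to 0.07 over 7 pairs), so the numbers are no pairing. The difference between MIR and PAX5-G183S was called for 2 genes without PAX5-G183S replicate 4 and 0 without each MIR array. No paired analysis was possible because the MIR isolation batches share no replicate numbers. Fewer arrays or genes enter several of these fits; otherwise the cause was not tested.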

Other observations

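Some called genes outside the lists were picked for related functions after their values were seen. They do not stand for the other called genes. Mdm4, a partner of Mdm2 in holding down p53, changed by -0.46, and E2f8, a repressor of the cell cycle, by -0.43. Mbtps2, the protease that cuts ATF6 and SREBP at the Golgi, changed by 0.38.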
